A study of Homo sapiens with 4 samples.

Results

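AXL is a gene of the + strand of chromosome 19 that encodes a receptor tyrosine kinase, and 22 of the 14149 peaks in the HuR RIP-seq list lay in it. Members were taken by the host gene of each peak, meaning the gene of the RefSeq transcript named in its annotation, which gave 21 peaks, and by position inside the gene, which added 1. The gene was chosen by its peaks in this same list, whose scores were among the highest, so those scores are given as a description with no test. RIP-seq sequences the RNA that an antibody pulls down with an RNA-binding protein, here HuR, from cell lysate. The cells were MDA-MB-231, a human triple-negative breast cancer line, unmodified and untreated as far as the labels say, grown in DMEM with fetal bovine serum and antibiotics. There were 2 samples with a mouse anti-HuR antibody and 2 with mouse IgG, which serves as the background for RNA that sticks to any antibody. The authors deposited 1 list for all samples, with no value for a single replicate or for IgG, so no difference between HuR and IgG and no spread between replicates could be computed for AXL. The list also gives no level of each RNA in the lysate, so the amount of AXL RNA and the share of it bound to HuR cannot be told apart.

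AXL belongs to the TAM family of receptors with TYRO3 and MERTK. Its ligand is GAS6, a vitamin K-dependent protein that bridges the receptor to phosphatidylserine on membranes, and the activated receptor signals through adaptors to PI3K, AKT and ERK. In breast cancer AXL is known as a receptor of mesenchymal and basal-like lines, where it is linked to migration and drug resistance. HuR, the product of ELAVL1, recognises AU-rich and U-rich stretches, most often in 3′ UTRs of mature mRNA and also in introns of nuclear RNA.

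AXL spans chr19:41219223-41261766 (hg38), 42544 bp. Its canonical GENCODE transcript, AXL-201, has 20 exons that sum to 4717 bases, and the last of them, with 2214 bases, holds the stop codon and the whole 3′ UTR of 1862 bases. The stretches below show the parts of the gene on which the description turns, read 5′ to 3′ on the + strand of hg38. The first is the coding part of the highest AXL peak, chr19:41259661-41259904, with the stop codon in capitals. Exons 13 and 14, chr19:41248514-41248609 and chr19:41248743-41248820, lay whole inside the highest peaks found before the last exon. Exon 10, chr19:41239694-41239720, is the shortest exon of the gene and had no peak over it.
Coding part of the highest peak: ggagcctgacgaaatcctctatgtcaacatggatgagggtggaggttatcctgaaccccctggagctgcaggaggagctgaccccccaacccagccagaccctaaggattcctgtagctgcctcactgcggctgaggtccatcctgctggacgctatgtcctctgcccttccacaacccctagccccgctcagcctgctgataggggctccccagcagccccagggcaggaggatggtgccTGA
Exon 13: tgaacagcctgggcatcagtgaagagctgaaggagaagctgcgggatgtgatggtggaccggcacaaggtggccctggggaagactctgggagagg
Exon 14: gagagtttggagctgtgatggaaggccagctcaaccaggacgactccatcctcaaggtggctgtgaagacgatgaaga
Exon 10: ggcaagcacagccagtccaccagctgg

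From the 3′ UTR, 4 stretches of 30 bases are shown. The start of the longest run of T in the AXL 3′ UTR lies at chr19:41260289-41260318, with 20 of its T in capitals. Both copies of ATTAAA, a known variant of the poly(A) signal, are shown in capitals at chr19:41260259-41260288 and chr19:41261167-41261196. The last stretch, chr19:41261426-41261455, is one of the parts of the peak windows with 3 copies of TTCTA, shown in capitals, the most found there in 30 bases.
Start of the T run: taaggcctacTTTTTTTTTTTTTTTTTTTT
First poly(A) signal variant: gtctctaattctATTAAAgtgctaaggttc
Second poly(A) signal variant: agattctagatgATTAAAtaagattctaac
Stretch rich in the pentamer: gTTCTAagactcaaatgTTCTAagtTTCTA

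The 22 AXL peaks, each 347 bp wide like every peak of the list, had deposited scores from 656 to 2769 with a median of 1054. The score is HOMER's own value for a peak and its scale was not stated by the authors. Every AXL peak stood far above the typical peak, since the lowest was 19.3 times the list median of 34.0. Of the 315 peaks in the list that scored at or above the lowest AXL peak, 22 were in AXL, or 6.98%. The 22 peaks were 0.155% of the list's peaks and held 1.96% of its summed score. By the highest score AXL ranked 4 of the 3312 genes with a peak, below ACTB, TMED2 (3392) and CANX (3376) and above UBE2N (2638.5) and GPS2 (2625). TMED2 and CANX encode proteins of the secretory pathway and UBE2N a ubiquitin-conjugating enzyme. With its 21 peaks by transcript, without peak 22, AXL ranked 3 by summed score and 23 by median score. On the same basis it ranked 11 by summed score per kb of exon (3268 genes had a length).

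The peaks were numbered from 1 to 22 along the gene, 5′ to 3′, and the interval after each score is an exact Poisson 95% interval on its number of score steps. It covers counting error only. Peak 1 (chr19:41219305-41219651, +) scored 1109 (1077 to 1142). It covered the end of exon 1, which holds the 5′ UTR and the start of the reading frame, and it had the highest focus ratio of the gene, 0.797. The focus ratio is a deposited fraction and not a width of the peak, and its median was 0.532 in AXL and 0.542 in the list. Peak 2 (chr19:41220438-41220784, −) scored 860.4 (832 to 889) and peak 3 (chr19:41220693-41221039, +) scored 1049 (1018 to 1081), and both overlapped exon 2. Peak 4 (chr19:41221537-41221883, −) was the lowest of the gene at 656 (632 to 682). Only 4 of its bases were exonic, in exon 4, and all 347 lay over an antisense lncRNA gene at chr19:41221426-41222051. Peak 5 (chr19:41221886-41222232, +) scored 1158 (1125 to 1191), with 171 bases in exon 4 and 166 over the same antisense gene. The library kit named in the labels does not mark the strand of the RNA, so reads from AXL and from this antisense gene cannot be told apart there.

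The middle of the gene carried 8 peaks with scores between 739.5 and 1120.1. Peak 6 (chr19:41230785-41231131, −) scored 833 (805 to 862) and held exon 5 whole. Peak 7 (chr19:41231125-41231471, +) scored 1059 (1027 to 1091) and held exon 6 whole. Around exon 7 lay peak 8 (chr19:41237702-41238048, −) with 868 (840 to 897) and peak 9 (chr19:41238043-41238389, +) with 971.5 (941.5 to 1002). Around exon 9 lay peak 10 (chr19:41238893-41239239, −) with 757 (731 to 784.5) and peak 11 (chr19:41239243-41239589, +) with 1000.4 (969.9 to 1032). Alone among the AXL peaks, peak 10 had a simple repeat, (AGGATG)n, as its detailed annotation. Exon 11 was overlapped by peak 12 (chr19:41242648-41242994, −), which scored 739.5 (713 to 766), and by peak 13 (chr19:41242942-41243288, +), which scored 1120.1 (1088 to 1153). From peak 6 to peak 13 the + strand peaks were all higher than the − strand peaks.

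A step up was seen at exons 13 and 14, whose sequences are printed above. Peak 14 (chr19:41248317-41248663, −) scored 1372 (1336 to 1408) and peak 15 (chr19:41248658-41249004, +) scored 1607 (1568 to 1646). These were the highest scores before the last exon. Peak 16 (chr19:41252517-41252863, −) scored 1151 (1119 to 1185) although only 18 of its bases were exonic, at the start of exon 16. Peak 17 (chr19:41253409-41253755, −) scored 740.5 (714 to 767) and held exon 17 whole, and peak 18 (chr19:41253647-41253993, +) scored 874 (846 to 903) over the same exon. No peak lay over exons 18 and 19.

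The last exon carried the 4 highest peaks of AXL. Peak 19 (chr19:41259661-41260007, −) scored 2769 (2718 to 2820) and peak 20 (chr19:41259770-41260116, +) scored 2683 (2633 to 2733), and both spanned the stop codon. Near the far end of the 3′ UTR, peak 21 (chr19:41261094-41261440, −) scored 2263 (2217 to 2309) and peak 22 (chr19:41261371-41261717, +) scored 2507 (2458 to 2556). In the list of 14149 peaks these 4 ranked 12, 13, 29 and 22 in that order.

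**Figure D1:**
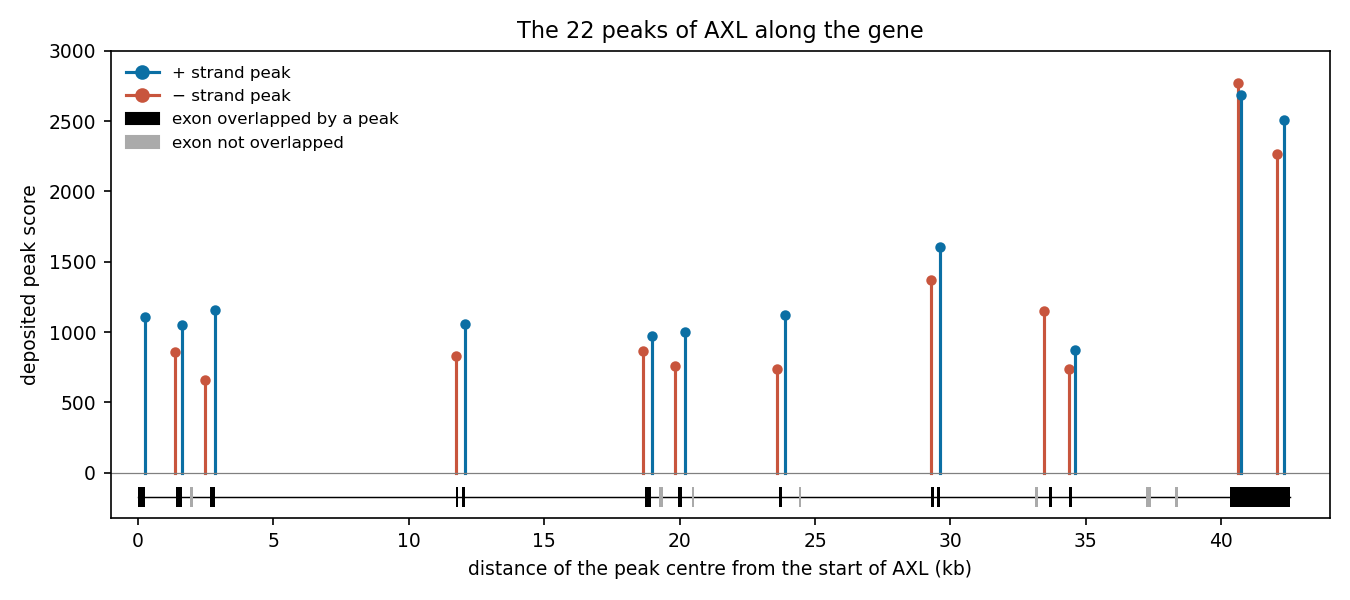
Deposited score of each AXL peak (vertical axis, from 0) against the distance of its centre from the start of the gene in kb, with + strand peaks in blue and − strand peaks in red. Boxes under the axis are the exons of the canonical transcript, black where a peak overlapped them and grey where none did. The 4 peaks over the last exon stand between 2263 and 2769, above the 18 others at 656 to 1607.

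The score of AXL was thus highest over its last exon. The 18 peaks before the last exon ran from 656 to 1607 with a median of 986, a 2.45-fold range, and their SD was 0.33 on the log2 scale. The 4 peaks of the last exon ran from 2263 to 2769 with a median of 2595. The ratio of the medians was 2.63, or 1.40 as a log2 difference, and the lowest last-exon peak was 1.41 times the highest peak before it, so the scores of the regions did not overlap. The last exon held 36.3% of the summed AXL score. The direction was that of most genes: in 1148 genes with peaks both in and before the last exon the median log2 difference was 1.02 (quartiles 0.54 and 1.38), it was above 0 in 90.7%, and AXL was just above the upper quartile. These genes were assigned by annotated transcript, and on that basis, without peak 22, the AXL difference was 1.44, with 258 genes, AXL included, at or above it, 22.5%. Within the 18 peaks before the last exon the score had no clear order along the gene, with Pearson r = 0.15 and Spearman rho = 0.14 for position. For the number of exonic bases under the peak, r was 0.19 and rho 0.13. These correlations are over peaks of 1 gene, which share the same libraries, and are given as a description.

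Most AXL peaks were deposited as intronic, but they lay against exons. The deposited class was intron for 17 of 22 peaks, 77.3%, against 61.9% of all peaks. A further 2 were exon, 2 were 3′ UTR and 1 was promoter-TSS. The class describes the centre of the peak. The centres of the 17 intronic peaks were 1 to 170 bp from the nearest exon, with a median of 62 bp, and all 22 windows held exonic bases. The side followed the strand of the peak without exception. The 8 intronic + strand peaks had their exon on the left, towards the 5′ end of the gene. The 9 intronic − strand peaks had it on the right. Exon distance, exonic bases and side were not computed for the rest of the list, so none is shown to be particular to AXL. When each position was read at the upstream edge of the window, as given by the peak's own strand, instead of at its centre, 13 peaks fell in coding exons, 3 in the 3′ UTR, 1 in the 5′ UTR and 5 in introns. Read at the downstream edge, 18 were in introns. How reads were moved or extended before the peaks were placed was not stated, so the intronic class of these peaks depends on an unknown setting.

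The peaks covered 13 of the 20 exons. Exons 3, 8, 10, 12, 15, 18 and 19 had none. These 7 exons were 27 to 160 bases long with a median of 101, and the 12 covered exons before the last were 78 to 255 bases long with a median of 127.5, so the lengths overlapped. Exon 10, whose 27 bases are printed above, is absent from AXL-202, a GENCODE transcript with 19 exons. The deposited annotation places AXL peaks in RefSeq transcripts of different exon number. These are NM_021913 with 19 introns, NM_001699 with 19 exons and NM_001278599 with 16 introns. With no peak over exon 10, the list does not tell forms with this exon from forms without it. Other differences between the forms were not examined.

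Peaks came in pairs of opposite strand. Of the 22 peaks, 11 were on the + strand, which is that of the gene, and 11 on the − strand, or 50%. The pairs described below held 20 of the 22 peaks, with 1 of each strand in a pair. The pairing thus largely set this share, so no interval is given. Of the 14 loci left after overlapping or touching peaks were merged, 10 had their highest peak on the + strand, 71.4%. Over the whole list 53.2% of 13711 peaks were on the strand of their host gene. A pair was defined as a − peak and the + peak that started inside it or at most 10 bp after it. This gave 10 pairs and left only peaks 1 and 16 alone. The definition itself put the − peak on the left and limited the distance between centres. That distance was 109 to 350 bp with a median of 317 bp. The + peak was the higher in 9 of the 10, with a ratio of + to − from 0.969 to 1.76 and a median of 1.20. The exception was the pair at the stop codon, where peak 19 scored 2769 and peak 20 scored 2683. The largest ratio was that of peaks 4 and 5, 1.76, where the − peak had only 4 exonic bases. In other genes the peak on the strand of the gene was the higher in 73.3% of 2355 pairs, with a median ratio of 1.12. Because the kit does not mark strand, a − strand peak in AXL is not evidence of antisense RNA.

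**Figure D2:**
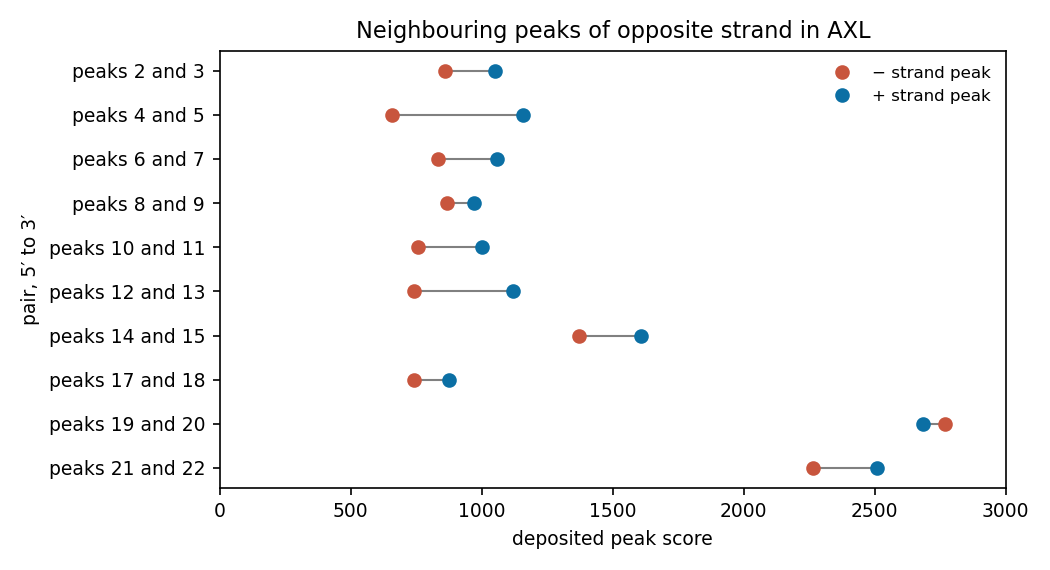
Deposited scores (horizontal axis, from 0) of the 10 pairs of neighbouring peaks in AXL, listed 5′ to 3′, with the − strand peak in red and the + strand peak in blue, joined by a line. The + strand peak is the higher in 9 pairs, and the pair of peaks 19 and 20 at the stop codon is the exception.

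The 3′ UTR had peaks at both ends and none in the middle. Peaks 19 and 20 ended 103 and 212 bp after the stop codon, peaks 21 and 22 covered 1190 to 1813 bp, and the 977 bp between the pairs, chr19:41260117-41261093, held no peak. In all, 44.9% of the bases of the 3′ UTR lay in a peak window. GENCODE has 3 AXL transcripts that pass the stop codon, and they end 300 bp (AXL-203), 390 bp (AXL-202) and 1862 bp (AXL-201) after it. The first pair lay within the part that all of these share, and the second pair lay in the part that, in GENCODE, only AXL-201 holds. The deposited annotation, however, places peak 21 in the last exon of NM_001699, the RefSeq form with 19 exons. The second pair is thus not shown to belong to the form with 20 exons. On the + strand the far peak scored 0.934 times the near one, and on the − strand 0.817 times. The difference is small beside that between the last exon and the rest of the gene.

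The AXL 3′ UTR held no ATTTA, the core of the AU-rich element, and neither did the 4 peak windows of the last exon. Each motif was searched on the sense strand, with overlapping copies counted. Of 17818 3′ UTRs of at least 100 bases 28.4% hold no ATTTA, but of the 6264 that are at least as long as that of AXL only 246 do, 3.93%. Among 1255 genes with a peak wholly inside the 3′ UTR, 39 had no ATTTA in the whole of it, 3.11%, and among the 902 of these with a 3′ UTR at least as long there were 10. TATTTAT, which contains ATTTA, was likewise absent, and no last-exon window held TTTTT. Over the list, 2051 windows lay wholly in a 3′ UTR, of which 54.0% held ATTTA, 8.24% TATTTAT and 78.7% TTTTT. Only 232 of them, 11.3%, held neither ATTTA nor TTTTT, and peaks 21 and 22, the AXL peaks wholly in the 3′ UTR, were among these. The counts stayed at 0 when each window was moved back by the distance from its centre to its edge. A motif that is not found says only that these letters are not in the window.

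Runs of 5 or more T were present in the AXL 3′ UTR but outside the peaks, whose windows held 44.9% of the bases of the 3′ UTR. The runs are few, so their place is not shown to differ from that share. Other kinds of U-rich sequence were not searched. The longest run, whose start is printed above, has 31 T and begins 395 bp after the stop codon, in the stretch without a peak, and 59 3′ UTRs, 0.331%, have a run as long. It begins just past the end of AXL-202. Other runs, of 5 T each, begin at 575, 583 and 768 bp and lie in the same stretch. How many reads could be placed uniquely over the long run was not tested.

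Both copies of ATTAAA were found after the sequence had been read, 367 and 1275 bp after the stop codon. The first lies before the end of AXL-202 at 390 bp and outside the peaks, and the second lies in peak 21. The more common signal AATAAA was absent, as it is from 15.5% of the 3′ UTRs. The pentamer TTCTA, also searched only after the sequence had been read, occurs 32 times in the AXL 3′ UTR, or 17.2 times per kb against a median of 1.07 per kb, and 2 of the 17818 3′ UTRs, AXL included, reach that density. The stretch printed above shows 3 of these copies. Peak 21 held 9 copies and peak 22 held 7, some of them shared, and peaks 19 and 20 held none. Of the 32 copies 13 lay in a peak window and 19 did not, where peak windows held 44.9% of the bases of the 3′ UTR. The copies are thus not shown to gather in the peaks. Of the 3′ UTR windows in the list 41.3% hold at least 1 copy.

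**Figure D3:**
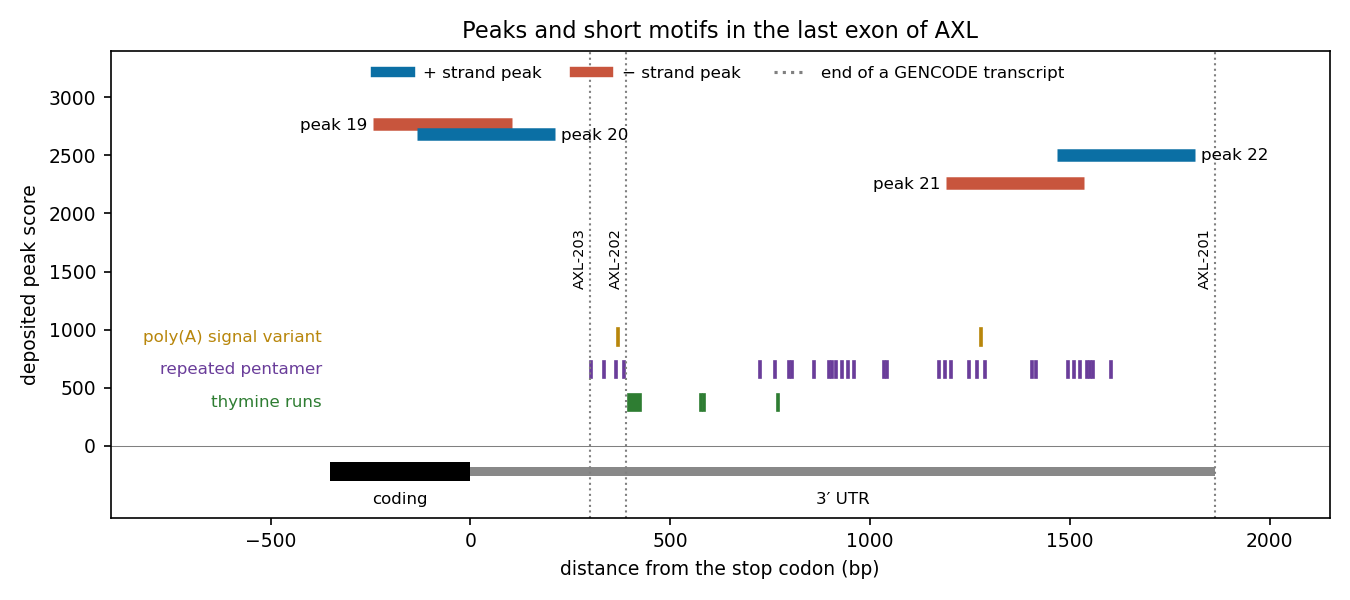
Peaks of the last AXL exon as bars from start to end at the height of their score (vertical axis), against the distance from the stop codon in bp, with + strand peaks in blue and − strand peaks in red, and transcript ends as dotted lines. Ticks mark runs of 5 or more T, the repeated pentamer (TTCTA) and the poly(A) signal variant (ATTAAA). All runs of T, which are few, fall in the 977 bp between the pairs of peaks. Peak windows hold 44.9% of the bases of the 3′ UTR.

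Base composition differed along the gene. The GC content of the 18 windows before the last exon was 53.6 to 68.6%. Peaks 19 and 20 at the stop codon had 60.5 and 59.1%, within that range, and peaks 21 and 22 in the 3′ UTR had 36.9 and 47.8%, below it. The whole 3′ UTR of AXL had 42.9% GC, close to the median of 42.4% over 3′ UTRs, and the median 3′ UTR window of the list had 37.5%. The high scores of the last exon were thus found both in GC-rich windows across the stop codon and in windows of lower GC content further into the 3′ UTR.

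The gene column of the list hides much of AXL. It names the gene with the nearest start site and gave AXL to peaks 1 to 13 and HNRNPUL1 to peaks 14 to 22, which held 56.7% of the summed AXL score. HNRNPUL1, which encodes an hnRNP-like protein, lies at chr19:41262496-41307787 on the same strand and begins 729 bp after the end of AXL. Inside its own span it had only 3 peaks, with scores of 51.4, 223 and 278, and the lowest AXL peak was 2.36 times the highest of them. Peak 22 was annotated as promoter-TSS of HNRNPUL1, at a deposited distance to the start site of -932 bp, but its window lay wholly in the 3′ UTR of AXL. By the gene column AXL would rank 38 of 3981 genes, with a highest score of 1158, and HNRNPUL1 would rank 5. The other neighbours, CYP2S1, CCDC97 and TGFB1, had no peak by transcript.

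AXL was the receptor with the highest scores among receptor tyrosine kinases. Of 58 such genes 7 had a peak, 12.1%, and of the 57 without AXL 6 did, 10.5% (exact binomial 95% interval 3.96 to 21.5), against 15.4% of all protein-coding genes in RefSeq (3083 of 20052). The 6 others had 51 peaks. EPHA2, an ephrin receptor, had 1 peak of 223, RYK, a Wnt co-receptor, had 19 peaks up to 132, and PTK7, another receptor of Wnt signalling, had 12 up to 63.6. The receptor IGF1R had 9 peaks up to 47.0, the insulin receptor INSR 6 up to 18.8 and LMTK2 4 up to 18.4. The lowest AXL peak was 2.94 times the highest of these, and the summed AXL score was 12.5 times the sum over the 6 others. EGFR and MET had no peak in the list, which does not show that their RNA was unbound.

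**Figure D4:**
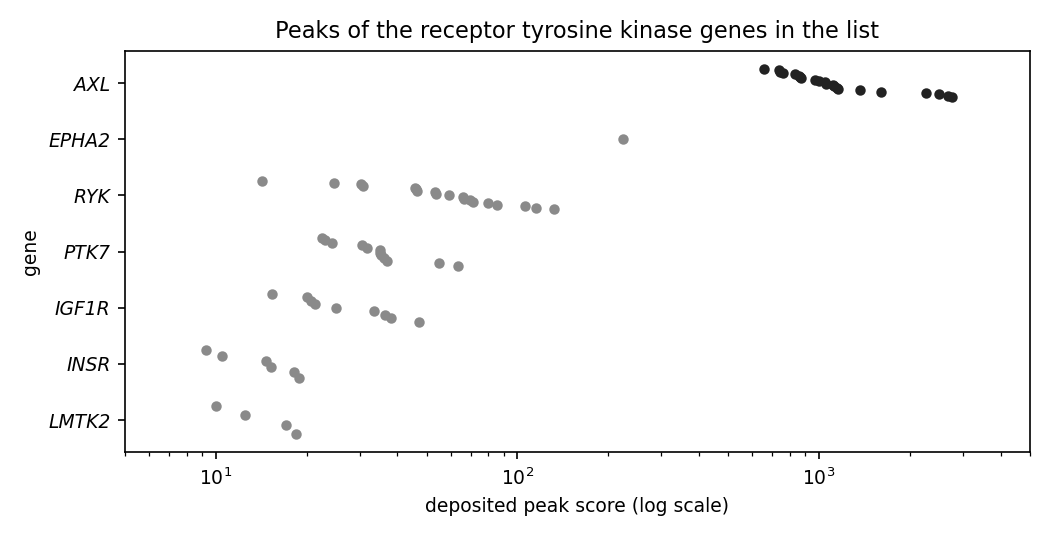
Deposited scores (log axis) of all peaks in the 7 receptor tyrosine kinase genes that had one, with 1 row for each gene and 1 point for each peak, spread vertically by rank within the row for legibility. The 22 AXL peaks start at 656, above the highest peak of the other genes at 223.

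The relatives and partners of AXL had lower scores than AXL where they had a peak. The TAM receptors TYRO3 and MERTK and the ligand GAS6 had none. PROS1, listed as a ligand of the TAM family and not of AXL in particular, had 1 intronic peak of 13.9. Of 39 genes of the AXL pathway apart from AXL, 13 had a peak, 33.3% (exact binomial 95% interval 19.1 to 50.2) beside the 15.4% of all protein-coding genes. Their median highest score was 35.7. These genes were chosen with earlier results known, and the share is a description. Among proteases that shed the AXL ectodomain, ADAM10 had 25 peaks up to 438.5 and ADAM17 had 2 up to 26.4, and GGCX and VKORC1 of the vitamin K cycle had none. Of 22 adaptors and kinases 7 had a peak. CRKL, an adaptor, was the highest at 270.4, followed by the PI3K subunit PIK3CA at 40.9, the ubiquitin ligase CBL at 35.7, the adaptor SHC1 at 15.4 and DOCK1, an activator of RAC, at 14.7. Of 9 genes of transcription and targets 3 had a peak: the co-activator YAP1, with 13 peaks up to 462, the factor SP1 at 127 and ZEB1, a factor of epithelial-mesenchymal transition, at 86.4. AXL stood above all of them, its highest peak being 5.99 times that of YAP1 and 6.31 times that of ADAM10.

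Markers of breast cell lines gave no check of the cell line. Of 5 markers of basal or mesenchymal lines 1 had a peak, CD44 with 13 peaks up to 769.6, and of 9 luminal markers none did, beside 15.4% of all protein-coding genes, and at such small numbers these counts cannot be told from that share. The list holds only peaks that the authors retained, so a gene without a peak, such as VIM, is not shown to be unexpressed.

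The genes with a pattern most like that of AXL were found among 290 genes with at least 10 peaks, by distance over 3 measures scaled to unit SD: the log2 median score, the log2 number of peaks and the log2 difference between the peaks in the last exon and those before it. On these measures AXL, with its 21 peaks by transcript, had a median of 1049 and a difference of 1.44. CORO1C was the nearest (distance 0.805), with 20 peaks, a median of 470 and a difference of 1.45. TM9SF3 (distance 1.17) had 22 peaks, a median of 321 and a difference of 1.41. LBR (distance 1.20) had 19 peaks with a median of 337, TMOD3 (distance 1.33) had 19 with a median of 348.5 and TFPI (distance 1.40) had 18 with a median of 280.2. Their differences were 1.30, 1.09 and 1.42. All 5 had 18 to 22 peaks and lower median scores than AXL, and both were measures by which they were picked. CANX, with 19 peaks, had a higher median of 2391 and a difference of 0.549, and was not among the 5. The typical gene had 2 peaks and a median score of 24.2.

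**Figure D5:**
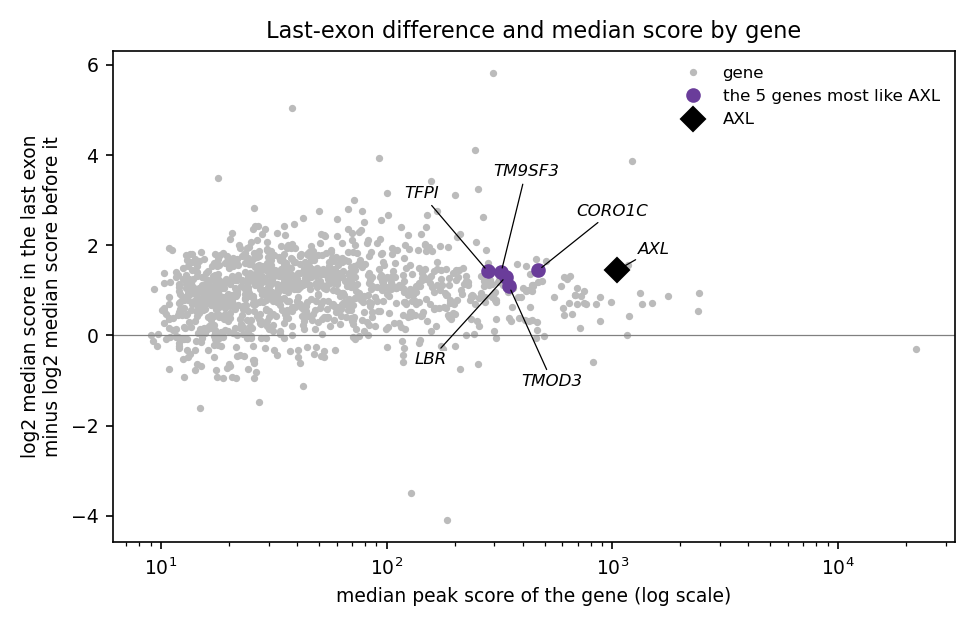
Each point is 1 of the 1148 genes with peaks in and before the last exon, by its median score (log axis) and by the log2 difference of the median scores in the last exon and before it. AXL, a diamond at 1049 and 1.44 from its 21 peaks by transcript, lies right of the 5 genes most like it, which have medians of 280.2 to 470.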

How the data were processed

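HuR RIP-seq peaks from MDA-MB-231 cells were analysed, with 2 HuR and 2 IgG samples grouped by antibody as labelled, which the study's methods call biological replicates. Per the labels, the authors mapped reads with STAR to hg38 and called peaks with HOMER. They kept peaks tied to a change in transcript abundance, by a threshold that is not given in the sources used here, and neither are versions, peak-calling settings and pooling. The deposited peak score has no stated scale and is not an enrichment over IgG. The deposited focus ratio is a fraction per the file headers. The deposited distance to the start site is in bp.

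Depth per sample is unknown. Of 11121 scores under 100, 99.2% lay within 0.05 score units of a multiple of 0.245, against 40.9% by chance. That 1 step is 1 tag is assumed for the Poisson 95% intervals, which cover counting error only.

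Host genes came from the annotated RefSeq transcript (13835 of 13929 matched a gene). Exons, sequences and motifs came from hg38 and GENCODE 44, with 1-based coordinates. The planned comparison of HuR with IgG was not run, since the list gives 1 score for each peak and none for a sample, and no test was made. AXL, its members and the gene lists were chosen with earlier results of these data known. Genes named were those of the TAM family, the ligands and the neighbours, up to 5 of the highest from other lists, the 2 genes above and the 2 below AXL by highest score and the 5 most like it; EGFR, MET, VIM and some further list members were named after their values were seen, and ACTB as the highest gene of the list. Alternatives were other gene assignments, score minimums, position shifts, merged peaks and single strands. Python 3.11.15, numpy 2.4.6, scipy 1.17.1, pandas 2.3.3 and matplotlib 3.10.9 were used, and functions were tested on simulated data.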

Additional observations from a re-analysis of the deposited data

How the results depend on the processing

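The 9 values of AXL and its gene lists were recomputed under 28 alternatives, of which 17 stayed within the limits set for them and 11 moved. The number of AXL peaks, 22, fell to 13 by the gene column and to 14 when overlapping or touching peaks were merged. The rank of AXL by highest score, 4, became 38 by the gene column. With its 21 peaks by transcript it was 23 by median score and 11 by summed score per kb of exon. The share of AXL peaks in introns, 77.3%, became 22.7% with positions read at the upstream edge of each peak. The log2 difference between the last exon and the peaks before it, 1.40, was 1.29 with + strand peaks and 1.60 with − strand peaks, and the share of the summed score in the last exon, 36.3%, was 34.3% and 38.7%. The number of AXL pathway genes with a peak, 13, was 7 at a score at or above the list median. The share of all protein-coding genes at that minimum was not computed, so the 7 cannot be set against it. The share of peaks on the + strand, 50%, was 71.4% with only the highest peak of each merged locus. That was counted as within the limits by a binomial interval that treats paired peaks as independent, so it is no sign of stability. The absence of ATTTA from the last-exon windows held under each alternative run for it, but this is no sign of stability either. One alternative searched for a longer motif that includes this pentamer and so had to be absent too. Another searched for a different motif. The last moved the windows, and since the whole 3′ UTR lacks the pentamer, only coding bases could have changed that count. All of these were counted as within the limits. No paired analysis was possible because replicates have no values of their own in the list, and leaving out each replicate was not run for the same reason. With 1 pooled list, no value here has an error between replicates, and a gene without a peak is not shown to be unbound.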
